A study of Mus musculus with 2 samples.

Results

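Cells copy their DNA once per cycle, in S phase, and 41 genes of that programme were described here, of 27998 genes counted, in αLPs, lymphoid progenitors that carry the integrin α4β7. The 41 genes were taken by symbol, from a list of S phase and DNA replication genes, and all of them were present in both count tables. The cells came from wild-type B6 mice that had received no treatment: 1 droplet single-cell RNA library from fetal liver, taken at E14.5 per the series' design text, and 1 from adult bone marrow. Live cells of both tissues had been sorted as Lin−, CD45+, CD127+, Flt3−, α4β7+ and CD25−. Both labels, also that of the fetal sample, name an age of 6 to 8 weeks, and how many animals were pooled is not given in the sources used here. Their batch labels are identical.

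The DNA strands are parted by the MCM helicase, which Cdc6 and other factors load onto origins and which Cdc45 and the GINS complex switch on. Primase and DNA polymerases then copy the strands behind a sliding clamp made of Pcna, ribonucleotide reductase and thymidylate synthase supply the nucleotides, and chaperones pack new histones onto the copied DNA. Many of these genes are transcribed by E2F factors as a cell passes from G1 into S phase. The genes of mitosis are switched on later, in G2 and M phase, so both groups mark different stretches of the same cycle. Early lymphoid progenitors are known to divide often, and innate lymphoid cells (ILCs) of adult tissue to divide rarely at rest.

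Because members of this programme share a known class of regulator, their promoter letters were looked at first. RefSeq promoter windows on GRCm38.p6, 300 bases long, were matched by symbol for 31 of the 41 genes, and 10 had no window in the table (Mcm4, Ccne2, Dscc1, Gins2, Gmnn, Tipin, Atad2, Exo1, Rfc2 and Usp1). The windows were searched on both strands for the 8-letter E2F words TTTCCCGC, TTTGGCGC, TTTCGCGC and TTTGCCGC, whose matches on opposite strands can overlap. A gene was counted when any of its windows held a match, which was so for 14 of the 31 genes (45.2%), against 2.6% of the 27025 genes with a window (2.26% of all 32851 windows). Of 52 further replication genes, 45 had a window and 16 of these a match. Of 24 division genes of G2 and M phase, 21 had a window and 1 had a match. The letters TTTGAA, the cell cycle homology region (CHR) known from division gene promoters, were in 15 of the 21 division genes and in 6 of the 31 replication members (19.4%), against 20.2% of the genes with a window. A match is a run of letters and says nothing of binding in these cells.

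The 250 bases before the start of 4 members are shown, each 5′ to 3′ on the gene's strand, with the E2F words in capitals. Cdc6 and Mcm5 are among the members with a larger gap between the tissues, and Mcm6 and Dtl among those with a smaller gap. The windows are Cdc6 at chr11:98907901-98908150 (plus strand), Mcm5 at chr8:75109259-75109508 (plus strand), Mcm6 at chr1:128359706-128359955 (minus strand) and Dtl at chr1:191575545-191575794 (minus strand).
Cdc6: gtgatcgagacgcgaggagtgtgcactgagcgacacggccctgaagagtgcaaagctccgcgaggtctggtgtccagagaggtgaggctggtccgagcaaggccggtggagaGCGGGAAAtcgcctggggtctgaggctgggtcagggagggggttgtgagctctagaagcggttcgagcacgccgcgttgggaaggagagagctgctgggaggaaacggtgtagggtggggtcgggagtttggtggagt
Mcm5: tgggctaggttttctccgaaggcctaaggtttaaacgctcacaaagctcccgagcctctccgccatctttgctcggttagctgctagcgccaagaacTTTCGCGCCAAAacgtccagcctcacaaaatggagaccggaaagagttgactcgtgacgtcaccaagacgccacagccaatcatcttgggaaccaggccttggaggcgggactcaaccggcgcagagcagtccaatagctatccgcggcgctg
Mcm6: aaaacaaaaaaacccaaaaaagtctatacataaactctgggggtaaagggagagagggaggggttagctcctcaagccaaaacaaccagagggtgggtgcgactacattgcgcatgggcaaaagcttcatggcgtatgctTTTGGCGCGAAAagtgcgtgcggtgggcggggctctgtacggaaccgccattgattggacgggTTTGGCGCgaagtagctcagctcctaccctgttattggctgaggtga
Dtl: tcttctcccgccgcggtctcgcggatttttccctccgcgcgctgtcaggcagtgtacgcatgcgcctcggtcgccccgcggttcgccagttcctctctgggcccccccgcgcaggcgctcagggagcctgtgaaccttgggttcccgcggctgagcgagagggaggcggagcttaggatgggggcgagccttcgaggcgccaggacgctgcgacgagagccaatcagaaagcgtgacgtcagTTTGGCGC
Distances are from the start that RefSeq gives. The word in Cdc6 starts 138 bases before that start and lies on the other strand, but GENCODE M21 places the start of Cdc6 further upstream, at position 98907801, so by that annotation the whole window lies inside the gene. Mcm5 holds a pair of overlapping words, at 153 and 149 bases. Mcm6 holds an overlapping pair at 110 and 106 bases and a further word at 47 bases, and the word of Dtl ends just before the start site. Members with and without a match had overlapping differences between the tissues. The log2 ratio, fetal level over marrow level, had a median of 0.91 (range 0.19 to 1.59) in the 14 genes with a match and of 1.09 (range 0.03 to 1.66) in the 17 without.

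After barcodes with under 500 genes or over 10% mitochondrial UMIs were left out, 8583 fetal liver and 7258 bone marrow cells were kept. A UMI is a tag that counts 1 RNA molecule. The kept cells held 91285900 UMIs (fetal) and 29941097 UMIs (marrow), and medians were 9294 and 3447.5 UMIs per cell, a 2.7-fold gap in depth. The libraries shared 19 barcodes. Of the genes of the sort, Il7r, Ptprc, Itga4 and Itgb7 lay between 47.9 and 417 counts per 1000000 UMIs (CPM), each lower in fetal liver (log2 ratios of -1.23 to -0.37). Flt3 lay at 1.45 and 1.20 CPM, and Il2ra at 1.08 CPM in the fetal and 7.78 CPM in the marrow library. With 1 library per tissue there is no replicate error, so no test was made. Intervals (95%, exact) cover counting error only, and the word called stands for a difference of at least 2-fold.

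The 41 genes together made up 2958 CPM of fetal liver RNA (270066 UMIs) and 1547 CPM of bone marrow RNA (46306 UMIs), a summed log2 ratio of 0.94 (0.92 to 0.95), or 1.91-fold. Among 40 members that reached 10 CPM in either library, 22 had a fetal level that was higher by 2-fold or more, where 7.25% of the 6938 genes at that level were. None of the 40 was at least 2-fold higher in bone marrow, where 10.9% of genes were. Their median log2 ratio was 1.08, beside 0.01 over all measured genes. All 41 log2 ratios lay above 0, and the interval lay above 0 for 40 of them. The share of all genes with an interval above 0 was not counted. The level used to pass the 10 CPM minimum could come from either library, and only Brip1, a helicase of DNA repair, fell under it (7.53 CPM in the fetal and 4.48 CPM in the marrow library). The called member closest to the 2-fold limit was Tipin at 1.02, and the closest member that was not called was Mcm2 at 0.91.

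**Figure D1:**
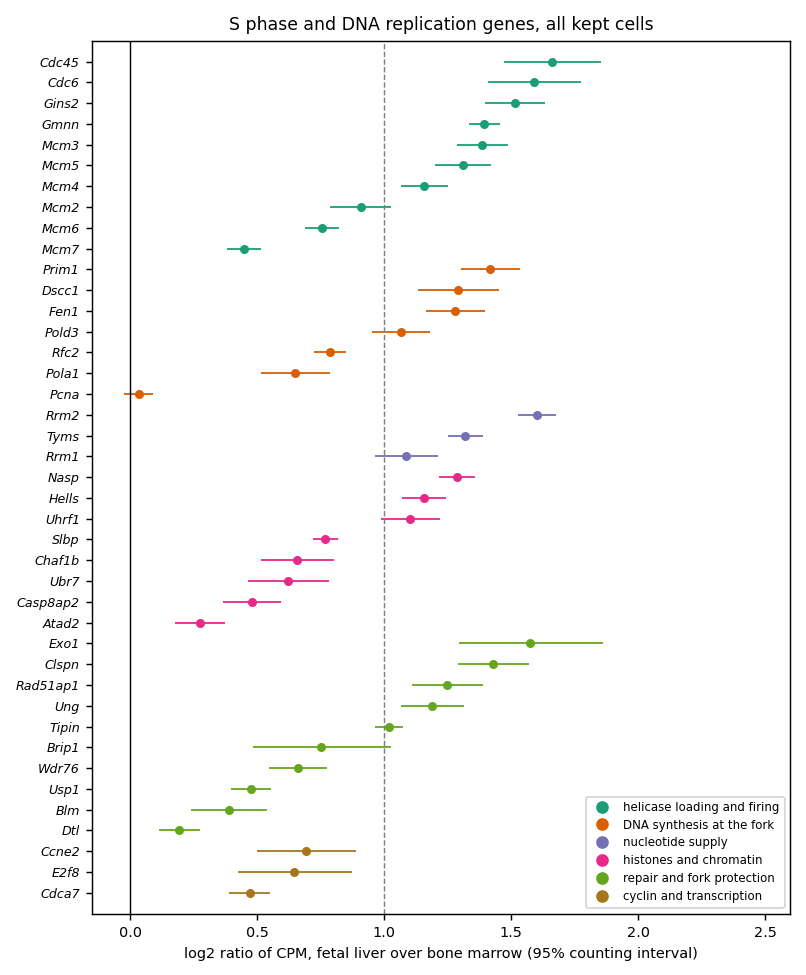
Log2 ratio of CPM, fetal liver over bone marrow, for each of the 41 genes over all kept cells, ordered within 6 role groups given by colour. Points are the ratios, bars are 95% counting intervals, the solid line marks 0 and the dashed line a 2-fold difference. The points run from Pcna at 0.03 to Cdc45 at 1.66, and 22 measured genes lie past the dashed line.

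Genes that load and fire the replicative helicase were higher in fetal liver by a summed log2 ratio of 1.10 (1.07 to 1.13), with 7 of 10 called. For this and each role group below, the share called over all measured genes was 7.25%. Cdc45 (mm10 chr16:18780447-18811987), which joins the helicase when an origin fires, stood at 26.3 CPM in the fetal and 8.32 CPM in the marrow library, a log2 ratio of 1.66 (1.47 to 1.85). Cdc6, which loads the helicase, stood at 27.4 and 9.12 CPM, a ratio of 1.59 (1.41 to 1.77). Gins2, a GINS subunit, stood at 63.1 and 22.1 CPM, a ratio of 1.51 (1.40 to 1.63). The largest ratios of this group thus belonged to loading and firing factors around the helicase. Gmnn, whose protein geminin blocks renewed loading after an origin has fired, stood at 209 and 79.6 CPM, a ratio of 1.39.

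The 6 subunits of the helicase ring did not differ by the same amount, although their proteins assemble in equal numbers. Mcm3 (76.9 CPM in the fetal and 29.4 CPM in the marrow library), Mcm5 (64.3 and 25.9 CPM) and Mcm4 (81.5 and 36.6 CPM) had log2 ratios of 1.39, 1.31 and 1.16. Mcm2 (41.7 and 22.2 CPM), Mcm6 (126 and 74.5 CPM) and Mcm7 (100.3 and 73.6 CPM) had ratios of 0.91, 0.75 and 0.45. The interval of Mcm7 (0.38 to 0.51) and that of Mcm3 (1.28 to 1.49) did not overlap. Exons of Mcm7 overlap Ap4m1 and Cops6 on the opposite strand, and whether the authors' counting used strand is not given in the sources used here, so reads of these genes cannot be told apart.

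Genes of DNA synthesis at the fork held the member with the smallest difference. Pcna (mm10 chr2:132249162-132253314), the sliding clamp, stood at 118 CPM in the fetal and 115 CPM in the marrow library, a log2 ratio of 0.03 (-0.02 to 0.09). Rfc2, a subunit of the complex that loads this clamp, stood at 139 and 80.4 CPM, a ratio of 0.79 (0.72 to 0.85). Pola1, the catalytic subunit of polymerase alpha, lay between them at 28.6 and 18.2 CPM (ratio 0.65). Prim1, the primase that lays the first primer, Dscc1, Fen1, the flap endonuclease of lagging strand synthesis, and Pold3, a subunit of polymerase delta, had ratios of 1.42, 1.29, 1.28 and 1.07 and made up the 4 called of 7.

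All 3 genes of nucleotide supply were called. Rrm2 (mm10 chr12:24708241-24714146), the regulated subunit of ribonucleotide reductase, stood at 158 CPM in the fetal and 52.0 CPM in the marrow library, a log2 ratio of 1.60 (1.53 to 1.68). Tyms, thymidylate synthase, stood at 168 and 67.3 CPM, a ratio of 1.32 (1.25 to 1.39). Rrm1, the other subunit of the reductase, stood at 44.3 and 20.9 CPM, a ratio of 1.09. The summed ratio of 1.40 (1.36 to 1.45) was above that of each other role group. By the median of its members the group stood at 1.32, just below the 1.35 of helicase loading and firing.

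Among 8 genes of histones and chromatin 3 were called: Nasp, Hells and Uhrf1. Nasp, a chaperone of histones, stood at 148 CPM in the fetal and 60.5 CPM in the marrow library, a log2 ratio of 1.29 (1.22 to 1.36). Slbp, which binds the stem-loop of histone messengers, stood at 228 and 134 CPM, a ratio of 0.77 (0.72 to 0.82). Hells, a chromatin remodeller, and Uhrf1, which guides methylation of new DNA, had ratios of 1.16 and 1.10. At the low end, Atad2 stood at 43.0 and 35.6 CPM, a ratio of 0.27, and Casp8ap2, a factor of histone gene expression, at 36.4 and 26.1 CPM, a ratio of 0.48. Chaf1b, a subunit of the assembly factor CAF-1, and Ubr7 lay between at 0.66 and 0.62.

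Of 10 genes of repair and fork protection, 9 were measured and 5 called. Exo1, an exonuclease of mismatch and break repair, stood at 11.5 CPM in the fetal and 3.87 CPM in the marrow library, a log2 ratio of 1.57 (1.29 to 1.86). Clspn, the checkpoint mediator claspin, stood at 42.2 and 15.7 CPM, a ratio of 1.43 (1.29 to 1.57). Rad51ap1, a factor of DNA repair, and Ung (mm10 chr5:114130386-114139323), which cuts uracil out of DNA, had ratios of 1.25 and 1.19. The group spread widely. Tipin, of the fork protection complex, stood at 211 and 104 CPM (ratio 1.02), Usp1, a deubiquitinase, at 75.2 and 54.1 CPM (ratio 0.47), and the helicase gene Blm at 20.4 and 15.6 CPM (ratio 0.39). Dtl, whose protein marks replication factors for destruction on chromatin-bound Pcna, stood at 61 and 53.4 CPM, a ratio of 0.19 (0.11 to 0.27), next to Pcna as the second smallest.

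None of the 3 genes of cyclin and transcription was called, where 7.25% of all measured genes were, so with 3 genes this count says little. Ccne2, a cyclin of the entry into S phase, stood at 14.0 CPM in the fetal and 8.68 CPM in the marrow library, a log2 ratio of 0.69 (0.50 to 0.89). E2f8, a repressor of E2F targets, stood at 10.3 and 6.58 CPM, a ratio of 0.64, and Cdca7 at 71.3 and 51.5 CPM, a ratio of 0.47. Exons of 8 members overlap a counted gene on the opposite strand (Ccne2, Cdc45, E2f8, Fen1, Gins2, Mcm7, Rfc2 and Ubr7), and Pcna, Nasp and Tyms have named pseudogenes. Of these copies only Pcna-ps2 was a counted gene, with 49 and 9 UMIs.

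A further 52 replication genes outside the 41, of which 44 were measured, gave 16 called in fetal liver, 0 called in bone marrow and a median log2 ratio of 0.80. Over all measured genes 7.25% were called in fetal liver and 10.9% in bone marrow. The largest ratios were 2.21 for Ccna2, the cyclin of S and G2 phase (63.2 CPM in the fetal and 13.7 CPM in the marrow library), 2.02 for Asf1b, a histone chaperone (82.9 and 20.5 CPM), and 1.90 for Ccne1 (16.2 and 4.34 CPM). The smallest were -0.24 for Pole4 (134 and 157 CPM), -0.19 for Mcmbp (47.7 and 54.3 CPM) and -0.15 for Orc4, of the origin recognition complex (34.5 and 38.3 CPM). Of 24 division genes 22 were called, with a median of 1.78. Of 12 replication-dependent histone genes 2 were called, with a median of 0.56. The gap between the tissues was thus larger for division genes than for the 41 genes, and for histone genes smaller. Messengers of these histone genes are known to end mostly without a poly(A) tail, so a kit that primes on poly(A) sees only part of them.

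Because the libraries differ in depth, each cell was next thinned at random to 2000 UMIs. This left 8452 fetal liver and 5923 bone marrow cells and left out 131 (1.53%) and 1335 (18.4%) shallower ones. A fetal liver cell showed a mean of 4.65 ± 3.22 of the 41 genes (SD over cells, median 4) and a bone marrow cell 2.12 ± 2.66 (median 1), a 2.19-fold difference. Without thinning the means were 15.2 and 4.12. None of the 41 genes was seen in 6.83% of fetal liver cells (interval 6.30% to 7.38%) and in 27.7% of bone marrow cells (26.5% to 28.8%). At least 10 genes were seen in 8.44% (7.85% to 9.05%) and 3.22% (2.79% to 3.71%). The distributions overlapped over most of their range, and the bone marrow cells were concentrated at 0 to 2 genes.

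**Figure D2:**
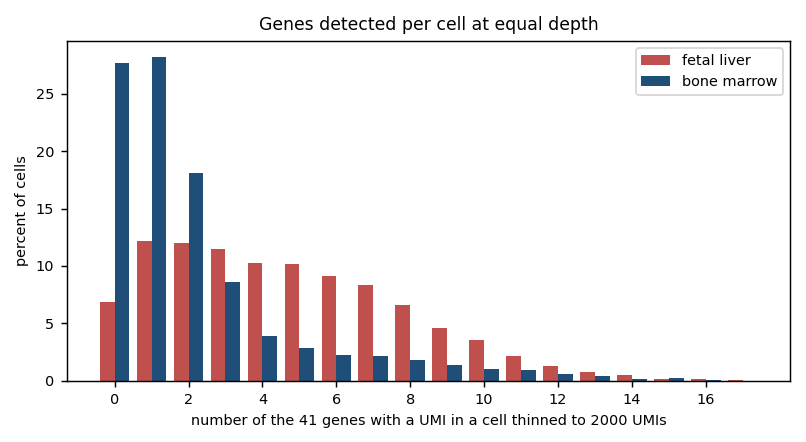
Percent of cells (vertical) by the number of the 41 genes with a UMI (horizontal) after each cell was thinned to 2000 UMIs, in 8452 fetal liver and 5923 bone marrow cells. Bone marrow bars are tallest at 0 and 1 gene, and fetal liver bars spread out over higher numbers, with medians of 4 and 1.

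The tenth of cells richest in these messengers held 45.1% of the 41 genes' UMIs in bone marrow and 25.2% in fetal liver. So by this measure the programme was more unevenly spread over cells in bone marrow. The shares moved with depth: they were 48.5% and 28.1% at 1000 UMIs and 35.3% and 23.0% at 4000 UMIs. A thinned cell held a mean of 2.40 UMIs of the 41 genes in bone marrow and 5.40 in fetal liver. The part of this lower count in the share was not tested. For each of the 41 genes the share of thinned cells with a UMI was higher in fetal liver, with intervals that did not overlap. How many of all genes did so was not counted, so these intervals do not set the 41 apart from other genes. Slbp was seen in 33.0% of fetal and 18.5% of marrow cells, Rrm2 in 18.4% and 4.34%, and Cdc45 in 4.31% and 1.06%. Pcna, equal between the libraries as a summed level, was seen in 19.4% (18.5% to 20.2%) and 16% (15% to 16.9%). No cell class here is known to lack these genes, so the share of cells that free RNA alone would give was not measured. The fold in genes per cell depended on the depth and on the cells that reach it: it was 2.44 at 1000 UMIs (2.49 and 1.02 genes) and 1.54 at 4000 UMIs (8.39 and 5.44 genes), where 7900 fetal liver and 2887 bone marrow cells were left.

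To ask how the 41 genes differ among cells at a like stretch of the cycle, cells were sorted by the number of the 24 division genes seen at 2000 UMIs, a measure that uses none of the 41. No division gene was seen in 36.6% of fetal and 76.3% of marrow cells, 1 in 19.6% and 14.2%, and 2 or more in 43.8% (3704 cells) and 9.49% (562 cells). Division genes seen in a cell are a mark of G2 and M phase in the main, and a cell in S phase may show none. Depth moved with this sorting: median UMIs were 7612 and 3717 in cells with none, and 11785.5 and 7272.5 in cells with 2 or more, and its part in the result was not tested.

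In cells with no division gene the 41 genes stood at 2276 CPM in the fetal and 1082 CPM in the marrow library, a summed log2 ratio of 1.07 (1.05 to 1.10). Of 38 measured members 24 were called, where 6.66% of all genes were, and the median was 1.25. Rrm2 stood at 57.4 and 10.7 CPM (ratio 2.42), Cdc45 at 16.1 and 3.43 CPM (2.23), Mcm3 at 73.6 and 22.4 CPM (1.71) and Ung at 55.6 and 18.3 CPM (1.61). In the same cells Pcna stood at 90.9 and 82.1 CPM, a ratio of 0.15, and Dtl at 43.4 and 39.0 CPM, a ratio of 0.16. All 38 ratios were above 0. With 1 division gene the levels were 3076 and 1912 CPM (summed ratio 0.69), and 14 of 39 measured members were called, where 5.74% of genes were.

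In cells with 2 or more division genes fetal liver was no longer higher. The 41 genes stood at 3284 CPM in the fetal and 3748 CPM in the marrow library, a summed log2 ratio of -0.19 (-0.21 to -0.17), with a median of -0.11. None of the 41 was at least 2-fold higher in fetal liver, where 4.56% of genes were, and 2 were in bone marrow, where 7.89% of genes were. These were Ccne2, at 15.4 CPM in the fetal and 33.2 CPM in the marrow library (ratio -1.10, interval -1.36 to -0.84), and Pcna, at 130 and 261 CPM (ratio -1.0, interval -1.09 to -0.91). E2f8 followed at -0.90, Dtl at -0.82, Atad2 at -0.77 and Pola1 at -0.71. The highest ratios were 0.43 for Gins2 (64.1 and 47.5 CPM) and 0.42 for Mcm3 (74.9 and 56.2 CPM). The genes of helicase loading and firing were equal as a sum in these cells, at 847 and 840 CPM, a ratio of 0.01 (-0.04 to 0.06). The genes of cyclin and transcription were the farthest apart, at 97.9 and 156 CPM, a ratio of -0.67 (-0.78 to -0.55).

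Finer steps gave ratios above 0 with 0 or 1 division gene and below 0 with 2 or more. The summed log2 ratio was 1.07 in cells with 0 division genes, 0.69 with 1, -0.05 with 2, -0.23 with 3, -0.32 with 4 and -0.17 with 5 or more. The smallest groups were the 73 bone marrow cells with 4 and the 102 with 3 division genes. Within fetal liver the level ran from 2276 CPM at 0 to 3721 CPM at 3 division genes and 2908 CPM at 5 or more. Within bone marrow it ran from 1082 CPM at 0 to 4365 CPM at 4 and 3274 CPM at 5 or more, so the range over these steps was wider there.

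**Figure D3:**
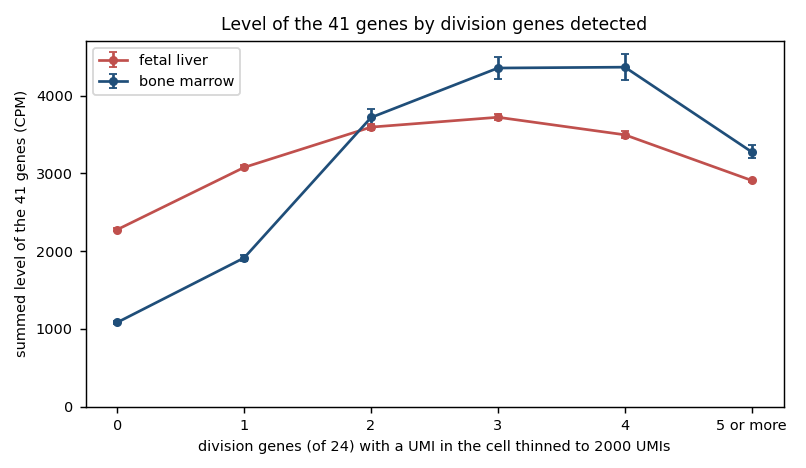
Summed level of the 41 genes in CPM (vertical) in cells with 0, 1, 2, 3, 4 and 5 or more of 24 division genes at 2000 UMIs (horizontal), for fetal liver and bone marrow, with 95% counting intervals as bars. Bone marrow lies below fetal liver at 0 and 1 division genes (1082 against 2276 CPM at 0) and above it from 2 on.

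Members differed in the step at which their level was highest. These peaks were read without intervals, so neighbouring steps cannot be told apart for members with few UMIs, above all in bone marrow. In fetal liver 16 of the 41 were highest in cells with 2 division genes, Mcm2 to Mcm7, Cdc6, Cdc45, Gins2 and Ccne2 among them, 17 with 3, 5 with 4 and 2 with 5 or more. In bone marrow 5 were highest with 2, 17 with 3, 17 with 4 and 2 with 5 or more. Rrm1 and Blm were highest with 5 or more division genes in both libraries. Ung alone was highest with 1 division gene in fetal liver, and in bone marrow it was highest with 2, as were Mcm2, Rfc2, Uhrf1 and Dscc1. In fetal liver Ung stood at 55.6, 71.3, 65.1, 51.8, 24.1 and 9.09 CPM over the 6 steps, and in bone marrow at 18.3, 28.6, 51.8, 45.8, 18.2 and 4.44 CPM, the last from 8 UMIs. Rrm2 stood at 212 CPM in the fetal and 272 CPM in the marrow library with 5 or more, below its highest levels of 256 CPM (with 3) and 298 CPM (with 4).

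Within each library the cells with 2 or more division genes were set against those with none. In bone marrow 34 of the 41 reached a 2-fold higher level with 2 or more, where 7.31% of genes were, with a median log2 ratio of 1.69 (range 0.52 to 4.55). In fetal liver 7 of 41 were, where 3.48% of genes were, with a median of 0.50 (range -0.83 to 2.18). The ratio was larger in bone marrow for all 41 genes, and for 39 the intervals did not overlap. The shares of all genes for which this held were not counted. Over all measured genes the median log2 ratio was -0.01 in bone marrow and -0.05 in fetal liver. Rrm2 went from 10.7 to 251 CPM in bone marrow (4.55) and from 57.4 to 221 CPM in fetal liver (1.94). E2f8 went from 2.55 to 27.7 CPM in bone marrow (3.44) and from 3.28 to 14.8 CPM in fetal liver (2.18), the largest ratio there. With intervals away from 0 in both libraries, Mcm2, Mcm4 and Ung were lower with 2 or more division genes in fetal liver and higher in bone marrow. Their log2 ratios were -0.21 and 0.96, -0.16 and 1.05, and -0.83 and 0.54. How many of all genes had such opposite signs was not counted. The fall in fetal liver did not begin at the first steps. There Mcm2 stood at 44.1, 49.0 and 49.9 CPM with 0, 1 and 2 division genes, and Mcm4 at 84.2, 95.7 and 97.0 CPM.

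**Figure D4:**
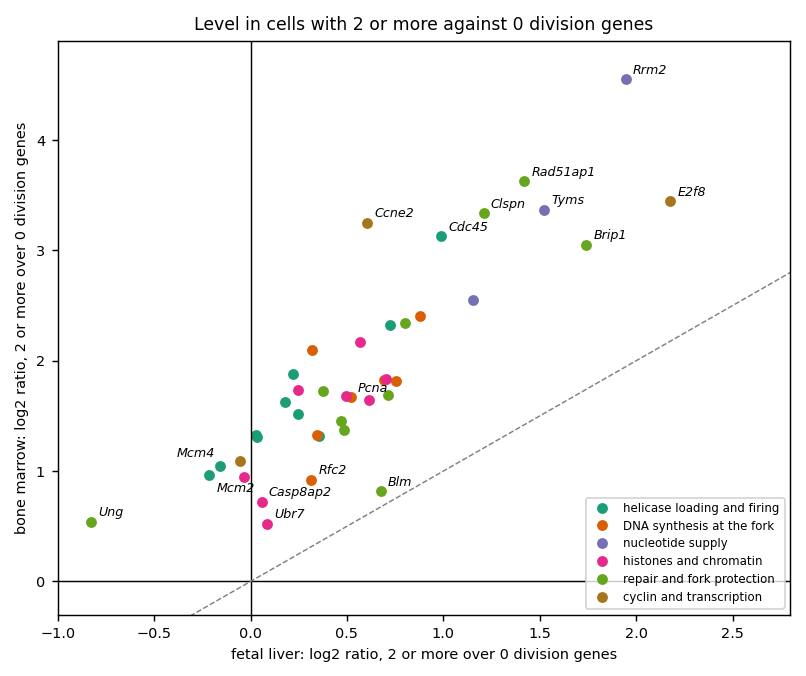
Log2 ratio of CPM in cells with 2 or more division genes over cells with none, in fetal liver (horizontal) and bone marrow (vertical), 1 point per gene, coloured by role. The dashed line marks equal ratios and all 41 points lie above it. Rrm2 is highest (1.94 and 4.55), and Ung lies farthest to the left (-0.83 and 0.54).

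Cells with 2 or more division genes held 59.6% of the 41 genes' UMIs in fetal liver, beside 53.7% of all UMIs, and 36.5% in bone marrow, beside 15.9% of all UMIs. In bone marrow they held 71.4% of Rrm2 UMIs but 34.6% of Pcna UMIs. For each Pcna UMI there were 0.131 Rrm2 UMIs in bone marrow cells with no division gene and 0.962 in those with 2 or more, and 0.632 and 1.70 in fetal liver cells.

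Sorting by 12 replication-dependent histone genes, whose messengers are known to rise in S phase, gave a smaller gap in the top group but no turn of the sum. Whether the cells that showed them were in S phase was not tested. None of the 12 was seen in 41.6% of fetal and 55.5% of marrow cells. At least 2 of these genes were seen in 36.2% of fetal and 18.5% of marrow cells. In these cells the 41 genes stood at 3645 and 2990 CPM, a summed log2 ratio of 0.29 (0.27 to 0.31), and 0 of 41 were called, where 4.84% of genes were. In cells with none of the histone genes 25 of 38 were called, where 7.68% of genes were, with a median of 1.43. With 1 it was 19 of 37, where 6.93% were.

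Both sortings together separated the groups further. Cells with at least 2 histone genes and at least 2 division genes stood at 3638 CPM in fetal liver (2363 cells) and 4110 CPM in bone marrow (410 cells), and 0 of 41 members were called in fetal liver, where 5.27% of genes were. Cells with at least 2 histone genes and no division gene stood at 3249 CPM (314 cells) and 1642 CPM (517 cells), and 23 of 39 were called, where 7.23% of genes were. Cells with at least 2 division genes and no histone gene stood at 2584 CPM (697 cells) and 2455 CPM (87 cells), and 0 of 38 were called, where 7.2% of genes were. Cells with neither stood at 2057 and 879 CPM, with 25 of 37 called, where 7.6% of genes were. Among these groups the difference between the tissues was thus seen in those without division genes, with or without histone genes. Cells with 1 division gene or 1 histone gene were in none of these groups. In cells with 1 division gene 14 of 39 members had been called, where 5.74% of genes were.

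Cells were also gated by markers of lymphoid and other classes, none of them among the 41 genes. A gate needed 2 markers of a class at 2000 UMIs and more than of any other class, and a further gate held cells with under 2 markers of each class and a UMI of Zbtb16, which encodes PLZF, a factor of ILC precursors. Gates are ranges of marker detection and no clusters or proven cell types: 26.1% of fetal and 28.0% of marrow cells were in a gate by exactly 2 markers, and 54.5% and 49.0% were in none. In fetal liver the 41 genes were highest in the B lineage gate (4166 CPM, 153 cells), followed by the natural killer (NK) or ILC1 gate (3295 CPM, 2059 cells) and the ILC2 gate (3119 CPM, 579 cells). They were lowest in the gate of lymphoid tissue inducer (LTi) cells or ILC3 (1951 CPM, 451 cells). In bone marrow they were highest in the early lymphoid gate (2565 CPM, 303 cells) and lowest in the PLZF gate (915 CPM, 550 cells). Most members had their highest and lowest levels in the same gates as the sum. The B lineage gate was highest for 31 and the LTi or ILC3 gate lowest for 35 of the 41 genes in fetal liver, and the early lymphoid gate was highest for 36 and the PLZF gate lowest for 38 in bone marrow.

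**Figure D5:**
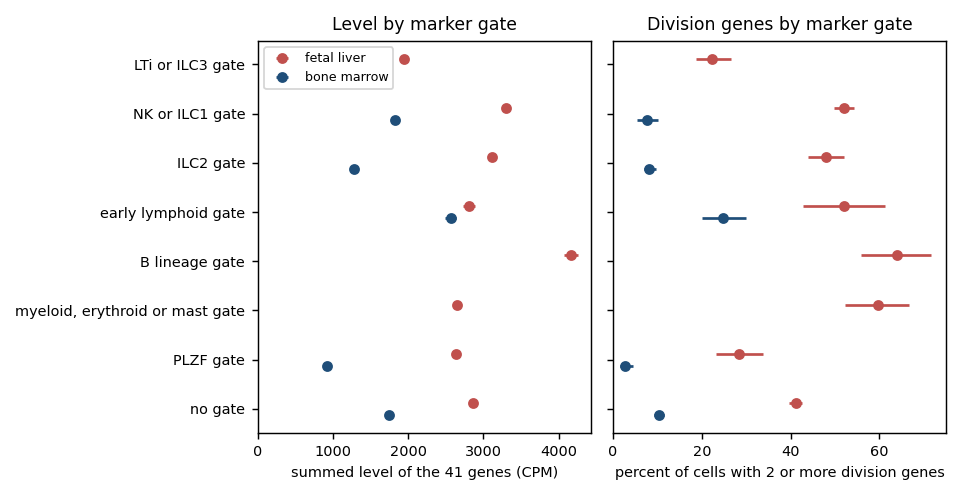
Left, summed level of the 41 genes in CPM by marker gate, and right, percent of cells with 2 or more of 24 division genes, for fetal liver and bone marrow, with 95% counting intervals. The bone marrow point is missing where a gate held under 50 cells. The libraries lie closest in the early lymphoid gate (2810 and 2565 CPM) and far apart in the PLZF gate (2634 and 915 CPM).

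In the early lymphoid gate the libraries came closest. The 41 genes stood at 2810 CPM in fetal liver (121 cells) and 2565 CPM in bone marrow, a summed log2 ratio of 0.13 (0.07 to 0.19), and 1 of 41, Exo1 (ratio 1.68, with 8 bone marrow UMIs), was called, where 7.63% of genes were. Ccne2 stood at 10.3 and 19.8 CPM (ratio -0.94, from 17 and 38 UMIs), Dtl at 56.6 and 101 CPM (-0.84), and Pcna at 124 and 175 CPM (-0.49). The share of cells with 2 or more division genes in this gate was 52.1% in fetal liver and 24.8% in bone marrow.

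In the NK or ILC1 gate the levels were 3295 and 1822 CPM, a summed ratio of 0.85 (0.81 to 0.90), and 20 of 41 members were called, where 7.82% of genes were. E2f8 had the largest ratio there, 2.28 with 7 bone marrow UMIs, followed by Rrm2 (197 and 47.2 CPM, ratio 2.07), and Pcna stood at 135 and 132 CPM. In the ILC2 gate the levels were 3119 and 1274 CPM (1587 bone marrow cells), a ratio of 1.29 (1.25 to 1.33), and 30 of 40 were called, where 10% of genes were. Cdc45 led at 24.1 and 5.54 CPM (ratio 2.12). In the PLZF gate the levels were 2634 and 915 CPM, a ratio of 1.53 (1.46 to 1.59), and 30 of 38 were called, where 10.2% of genes were. Mcm5 stood at 53.6 and 4.62 CPM there, a ratio of 3.53 from 11 bone marrow UMIs, and Gins2 at 52.0 and 9.67 CPM, a ratio of 2.43. Cells in no gate stood at 2858 and 1738 CPM, with 13 of 39 called, where 6.27% of genes were.

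The shares of cells with 2 or more division genes also differed between the libraries in these gates, and their part in the gaps was not tested apart from the values that follow. The order of the gates by share was that by level in part. In fetal liver the B lineage gate was highest by both (share 64.1%) and the LTi or ILC3 gate lowest by both (22.4%). In bone marrow the early lymphoid gate was highest (24.8%) and the PLZF gate lowest by both. The myeloid, erythroid or mast gate of fetal liver had a share of 59.7% and a level of 2646 CPM, below that of the NK or ILC1 gate. The shares were 52.1% and 7.58% in the NK or ILC1 gate, 48.0% and 8.19% in the ILC2 gate and 28.3% and 2.73% in the PLZF gate. Among cells without a division gene the level was 2724 CPM in the fetal and 1289 CPM in the marrow library in the NK or ILC1 gate, 2757 and 955 CPM in the ILC2 gate and 1977 and 686 CPM in the PLZF gate. Among cells with 2 or more it was 3219 and 2837 CPM in the ILC2 gate and 2937 and 3850 CPM in the early lymphoid gate. Of the 41 genes, 28 were higher in fetal liver in all 4 shared gates and in the ungated cells, 11 in 4 of these 5 groups of cells and 2 in 3 of them. The same count over all genes was not made, so it does not set the 41 apart.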

How the data were processed

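The authors deposited unnormalized UMI counts for each gene and barcode. Per the labels' protocols, UMIs of 3' libraries were counted and barcodes without a cell removed. The file headers name software version 3.0.1 and matrix format version 2, and the submitters' processing notes name mm10 and Seurat 4.0. Aligner and annotation: not given in the sources used here. Deposited gene and barcode lists are identifiers.

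The members, gene lists, marker gates and most alternatives were chosen with earlier results of these data known. Counts were summed over kept cells (at least 500 genes, at most 10% mitochondrial UMIs) and scaled to library totals (CPM). Log2 ratios carry exact conditional binomial intervals, and shares Clopper-Pearson intervals. The smallest level shown by 3 counts was 0.0329 CPM (fetal) and 0.100 CPM (marrow). Cells were thinned without replacement to 2000 UMIs to count genes per cell and to set strata and gates, and levels in these used unthinned counts. No doublet caller was run. An alternative left out the 6% of cells with the most UMIs. Values are given in full for the 6 largest and 6 smallest ratios and the 2 members per role with the most UMIs, and for the 3 largest and 3 smallest of the other replication genes. Further members, strata and gate values were chosen after they were seen. The ratio script was checked on simulated counts. Python 3.11.15, numpy 2.4.6, scipy 1.17.1, R 4.3.3 and edgeR 4.0.16 (TMM factors only) were used, and gene positions came from GENCODE M21 on mm10.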

Additional observations from a re-analysis of the deposited data

Results flagged for a closer look

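In fetal liver 5 members were lower in cells with 2 or more division genes than in cells with none, and all 41 were higher in bone marrow. For Ung, Mcm2 and Mcm4 the intervals of both log2 ratios lay away from 0 on opposite sides, which singled them out among the 41. Genes outside the 41 were not searched by these rules, so the shares of all genes that meet them are not known. Ung had a log2 ratio of -0.83 in fetal liver and 0.54 in bone marrow. Mcm2 had ratios of -0.21 and 0.96, and Mcm4 of -0.16 and 1.05. For the other members below 0 in fetal liver, Cdca7 (-0.05) and Chaf1b (-0.04), the interval there included 0. With 1 library per tissue the difference between these ratios was not tested. With 2 or more against no histone genes in their place, the fetal ratios of Mcm2 (-0.07) and Mcm4 (-0.002) had intervals that included 0. Ung alone stayed on opposite sides, at -0.58 in fetal liver and 0.72 in bone marrow.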

How the results depend on the processing

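No paired analysis was possible because each tissue has 1 library. The summed log2 ratio of the 41 genes, 0.94 as reported, stayed above 0 under every alternative run. It was 1.07 with TMM factors, 1.10 with median-ratio size factors, 1.30 with each cell weighing the same, 0.79 in cells with 1000 genes or more, 1.29 without the 6% of cells with the most UMIs, 1.17 on thinned counts, 0.85 with shared gates weighing the same and 0.36 with division gene strata weighing the same. The median went from 1.08 to 1.21, 1.24, 1.43, 0.93, 1.45 and 1.31 under the first 6 of these and to 0.41 under the last. The TMM and median-ratio factors moved the median of all genes by 0.150 and 0.179. With strata weighing the same, an alternative chosen after seeing the data, 3 of 40 members were called, where 4.41% of all genes were, and 7 ratios turned: Pcna -0.51, E2f8 -0.49, Dtl -0.40, Brip1 -0.33, Atad2 -0.32, Ccne2 -0.19 and Pola1 -0.11. By construction that weighting gives the cells with 2 or more division genes a larger part in bone marrow. Pcna also turned in cells with 1000 genes or more (log2 ratio -0.086) and with shared gates weighing the same (-0.022). A minimum of 50 CPM left 22 measured members, 14 of them called, where 7.78% of all genes were. The fold in genes per cell was 2.44 at 1000 UMIs, 1.54 at 4000 UMIs and 2.02 in cells with 1000 genes or more. The strata medians on thinned counts were 1.42 with no, 1.13 with 1 and -0.03 with 2 or more division genes. On unthinned counts with histone genes in their place they were 1.43, 1.04 and 0.39. The summed ratios of the gates moved from 0.85 (NK or ILC1), 1.29 (ILC2) and 1.53 (PLZF) to 0.96 (NK or ILC1) and 1.22 (ILC2) with 1 marker, to 0.80 (NK or ILC1) with 3, and to 0.91, 1.34 and 1.78 (NK or ILC1, ILC2, PLZF) with another random draw. The early lymphoid gate with 3 markers held too few cells, and the PLZF gate with 1 marker gave no value. The cause of these shifts was not tested. Leaving out the 19 shared barcodes, also added after seeing the data, moved no member's ratio beyond its interval. Other alternatives moved many of the 41 ratios beyond their intervals without a change of sign. It was 39 with each cell weighing the same and 39 without the 6% of cells with the most UMIs. It was 35 on thinned counts, 35 with median-ratio factors, 28 with TMM factors and 28 in cells with 1000 genes or more. With shared gates weighing the same it was 11. Depth limits Brip1, Exo1, E2f8 and Cdc45 most, with under 250 bone marrow UMIs each.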
